A study of Mus musculus with 6 samples.

Results

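In T cells, IP3 receptors and calcium pumps take part in setting the calcium level. This account covers 8 of their genes, taken by name from the 23420 rows of a table of normalised read counts: the IP3 receptor genes Itpr1, Itpr2 and Itpr3, the SERCA pump genes Atp2a2 and Atp2a3, the PMCA pump genes Atp2b1 and Atp2b4, and the Golgi pump gene Atp2c1. All 8 were found and all 8 passed the filter on low values. Poly(A) RNA had been sequenced from C57BL/6 naive CD4 T cells driven towards pathogenic Th17 cells, the IL-17-producing helper T cells associated with tissue inflammation, by plate-bound anti-CD3 and anti-CD28 for 2 days in the presence of the cytokines IL-23, IL-6 and IL-1b. The group called Stat3C has the genotype Stat3CSTOPfl/fl CD4-Cre, in which Cre expressed under the control of Cd4 releases a hyperactive STAT3 from a floxed stop cassette. The group called Stim1KO Stat3C has the genotype Stim1fl/fl Stat3CSTOPfl/fl CD4-Cre, in which the same Cre also recombines Stim1. Each group has 3 libraries. Both carry the active STAT3, so no group here has normal STAT3 signalling, and the age of the mice is not given in the labels.

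When a T cell receptor is engaged, phospholipase C releases inositol trisphosphate (IP3), which opens IP3 receptors, tetrameric channels in the membrane of the endoplasmic reticulum (ER), and lets stored calcium into the cytosol. STIM1 senses the emptied store and opens ORAI channels of the plasma membrane, and calcium flows in. SERCA pumps return calcium to the ER, PMCA pumps push it out of the cell, and the secretory pathway pump encoded by Atp2c1 loads the Golgi with calcium and manganese. The comparison addresses how the RNA of this machinery differed when Stim1 had been deleted.

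Recovered reads per library ran from 16009755 to 51347367, with the lowest number in Stim1KO Stat3C replicate 1 and the highest in Stat3C replicate 1. Stim1 itself, the check of the labels, stood at 1931 to 1999 normalised counts in Stat3C and at 687 to 811 in Stim1KO Stat3C. The T cell markers Cd3e, Cd3d, Cd3g, Cd2, Cd4 and Lck were present at 2147 normalised counts or more in every library. Each of the 6 was higher in Stim1KO Stat3C without overlap, and their sum ran from 35860 to 37570 in Stat3C and from 45280 to 48850 in Stim1KO Stat3C. The Th17 genes Il17a and Il17f were lower in Stim1KO Stat3C. Platelet and erythroid markers summed to 252 normalised counts in Stat3C replicate 2 and to at most 6.44 in any other library. Xist stood at 8362 and 11550 in replicate 3 of Stat3C and Stim1KO Stat3C and at 3.53 or less in replicates 1 and 2, and the Y-linked Ddx3y, Kdm5d and Uty ran the other way. For the receptor and pump genes the difference is therefore also given within replicates 1 and 2 and between the replicate 3 libraries. Whether replicates came from separate mice is not in the labels, so the spread behind each p-value is that between libraries and could be technical.

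The genes that changed all went in 1 direction: Itpr2, Itpr3, Atp2b1 and Atp2b4 rose in Stim1KO Stat3C, while Itpr1 and the pumps of the ER and Golgi did not pass the test. In numbers, 4 of 8 genes passed an adjusted p of 0.05 by limma as higher and 0 as lower. The background was 13.6% of the 11947 genes tested called in either direction, 8.62% as higher and 4.96% as lower. The median log2 fold change of the 8 genes was 0.28, beside -0.0011 over all genes tested. In the same 4 genes the 3 values of each group did not overlap, whereas 35.6% of all tested genes did not overlap in either direction and 19.2% were higher without overlap. The T cell markers above were higher in the same group, and their part in these changes was not tested. With replicates 1 and 2 of each group alone, 0 of the 8 genes passed by limma, with 82 genes called in all. These are bulk libraries, so more RNA per cell cannot be told apart from a larger share of cells that contain it.

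**Figure D1:**
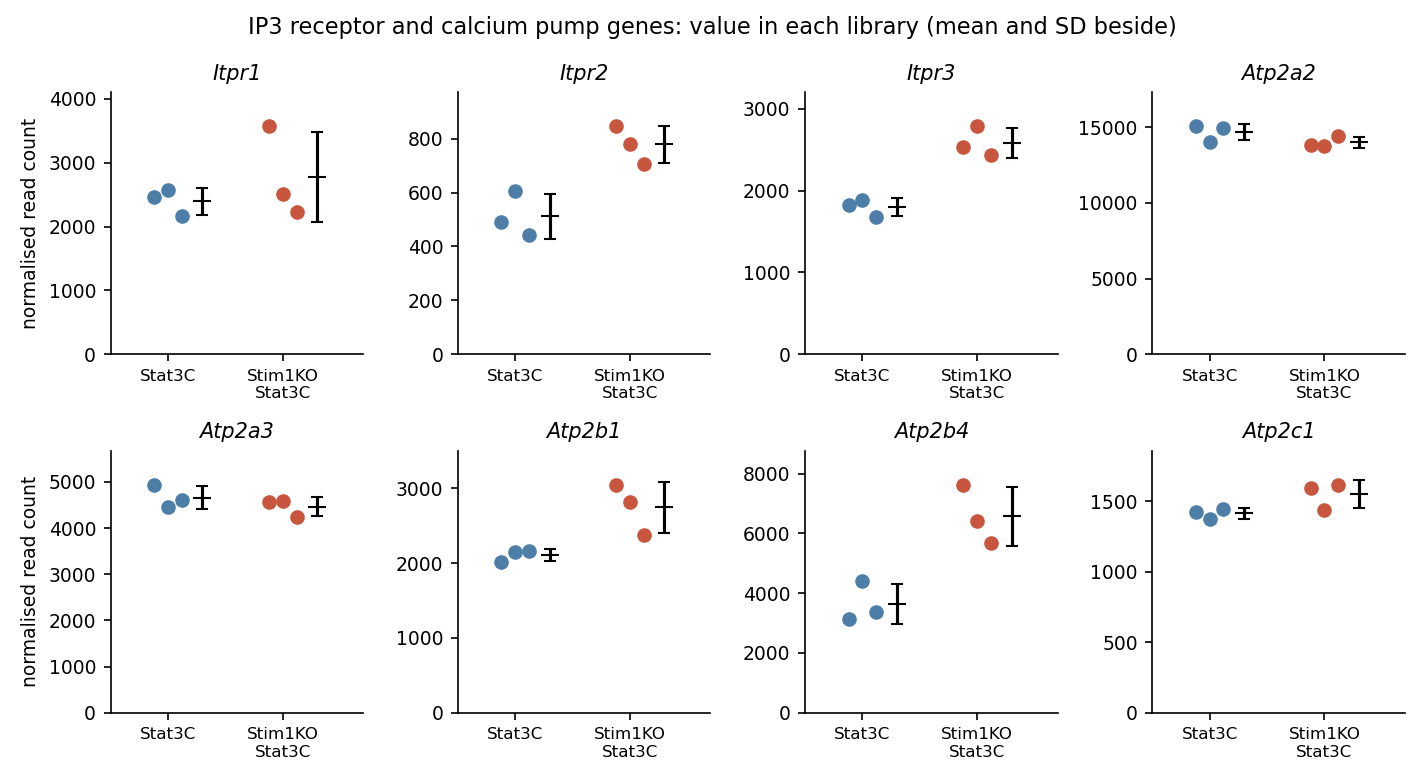
Normalised read count (vertical axes, each from 0) of the 8 genes in the 3 Stat3C libraries (blue) and the 3 Stim1KO Stat3C libraries (red), replicates 1 to 3 from left to right, with the mean and SD beside each group. The groups are apart for Itpr2, Itpr3, Atp2b1 and Atp2b4 and overlap for Itpr1, Atp2a2, Atp2a3 and Atp2c1.

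Among the IP3 receptor genes, Itpr3 had the most even increase. Itpr3 encodes the type 3 receptor (chromosome 17, 27057304 to 27122223, plus strand, GRCm38). It stood at 1826, 1887 and 1674 normalised counts in Stat3C replicates 1, 2 and 3 and at 2528, 2787 and 2431 in Stim1KO Stat3C. The lowest Stim1KO Stat3C library lay 28.9% above the highest Stat3C library. The log2 fold change was 0.52 (SE 0.07, adjusted p = 0.00434), a 1.44-fold difference of the means 1796 ± 109 and 2582 ± 184 (SD, n = 3 each, limma). It was 0.52 in replicates 1 and 2 and 0.54 between the replicate 3 libraries.

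Itpr2, the gene of the type 2 receptor (chromosome 6, 146108299 to 146502223, minus strand), had the lowest level of the 3 and rose by a similar factor. Its values were 491, 604 and 442 in Stat3C against 846, 782 and 708 in Stim1KO Stat3C. The groups were separated by 17.1%, with Stat3C replicate 2 the nearest to the other group. The log2 fold change was 0.61 (SE 0.13, adjusted p = 0.0187 by limma). It was 0.58 in replicates 1 and 2 (adjusted p = 0.102 by limma) and 0.68 between the replicate 3 libraries. Itpr2 no longer passed when replicate 1 or 3 of Stat3C was left out, or replicate 1 or 2 of Stim1KO Stat3C (log2 fold changes of 0.51 to 0.61, adjusted p of 0.0674 to 0.0811). The fewest reads behind any value in the set, 456, belong to this gene, a counting error of 4.68%, beside a 16.2% coefficient of variation among the Stat3C libraries.

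Itpr1, the gene of the type 1 receptor (chromosome 6, 108213096 to 108551109, plus strand), was the one receptor gene that did not pass. It stood at 2456, 2570 and 2160 in Stat3C and at 3573, 2518 and 2233 in Stim1KO Stat3C. Only Stim1KO Stat3C replicate 1 was above the Stat3C range, and the other 2 libraries lay inside it. The log2 fold change was 0.19 (SE 0.16, 95% interval -0.18 to 0.55, adjusted p = 0.461 by limma). It was 0.26 in replicates 1 and 2 and 0.05 between the replicate 3 libraries. Without Stim1KO Stat3C replicate 1 it was -0.011. The interval takes in 0.52, the change of Itpr3, and whether the receptor genes differed in response was not tested.

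The promoters of genes that rose and of a pump gene that did not are shown side by side to let their sequence be compared. RefSeq (GRCm38.p6) gave an entry for 6 of the 8 genes. Those of Itpr2, Itpr3 and Atp2a3 end at the base before the annotated 5′ end of the gene and overlap no annotated exon. The 250 bases before each start are written 5′ to 3′ on the gene's strand, and capitals mark GGAAA (a core sequence bound by NFAT factors), TTCNNNGAA (a form bound by STAT factors) or GGGCGG (the GC box), searched on both strands. Overlapping matches were each counted.
Itpr2, chr6:146502224-146502473, minus strand: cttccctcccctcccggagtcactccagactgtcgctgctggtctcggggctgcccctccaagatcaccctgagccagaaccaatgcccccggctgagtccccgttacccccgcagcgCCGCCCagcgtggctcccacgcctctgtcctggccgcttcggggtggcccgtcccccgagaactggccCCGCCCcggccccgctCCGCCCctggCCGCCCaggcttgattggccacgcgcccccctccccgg
Itpr3, chr17:27057054-27057303, plus strand: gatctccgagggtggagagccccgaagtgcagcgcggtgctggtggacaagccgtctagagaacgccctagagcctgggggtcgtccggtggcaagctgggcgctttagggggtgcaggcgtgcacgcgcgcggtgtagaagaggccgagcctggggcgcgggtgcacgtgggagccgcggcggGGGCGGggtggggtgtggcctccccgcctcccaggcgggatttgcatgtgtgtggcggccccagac
Atp2a3, chr11:72960919-72961168, plus strand: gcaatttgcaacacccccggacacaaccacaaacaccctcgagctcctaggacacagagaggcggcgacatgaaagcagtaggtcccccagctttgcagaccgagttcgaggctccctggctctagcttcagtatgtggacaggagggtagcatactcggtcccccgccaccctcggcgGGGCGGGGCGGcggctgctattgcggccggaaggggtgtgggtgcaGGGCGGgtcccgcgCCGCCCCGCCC
All capitals in these 3 windows mark GC boxes: 4 in Itpr2, 1 in Itpr3 and 5 in Atp2a3. Neither GGAAA nor TTCNNNGAA is among their letters. Over all 32851 promoter windows of the same length, 32.7% hold a GC box, 55.6% hold GGAAA and 7.0% hold TTCNNNGAA. All 3 are rich in G and C, at 74.4%, 72% and 66.8% against a median of 52.4% over all windows, and in CpG, with an observed over expected ratio of 0.70, 0.83 and 0.72 against a median of 0.37. Atp2a3, which did not pass, held the most GC boxes of the 3. The entries of the other genes are not printed, as none of them ends at the annotated 5′ end of its gene. Of the genes that rose, Atp2b4 has an entry 47044 bases from the annotated 5′ end, with none of the motifs, 45.6% GC and a CpG ratio of 0.16, both below the medians. The entries of Atp2b1 hold 4 and 3 GC boxes at 78.4% and 80.8% GC, and 1 of them holds GGAAA. Those of Atp2c1, which did not pass, hold 0 and 2 GC boxes at 51.6% and 70.8% GC, and 1 of them holds GGAAA.

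The calcium pumps of the plasma membrane rose. Atp2b4, which encodes the calmodulin-activated pump PMCA4 (chromosome 1, 133699457 to 133801041, minus strand), showed the largest change of the 8 genes. It stood at 3146, 4400 and 3365 normalised counts in Stat3C and at 7627, 6424 and 5677 in Stim1KO Stat3C. The lowest Stim1KO Stat3C library lay 29.0% above the highest Stat3C library, which was replicate 2. The log2 fold change was 0.86 (SE 0.14, adjusted p = 0.00814 by limma), a 1.81-fold difference of means. It was 0.91 in replicates 1 and 2 and 0.75 between the replicate 3 libraries.

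Atp2b1, which encodes the widely expressed pump PMCA1 (chromosome 10, 98914406 to 99026143, plus strand), rose less. Its Stat3C values were close together, at 2017, 2154 and 2158. Its Stim1KO Stat3C values spread more, at 3046, 2818 and 2369, and the nearest libraries of the groups were 9.80% apart. The log2 fold change was 0.37 (SE 0.09, adjusted p = 0.0341 by limma). It was 0.49 in replicates 1 and 2 but 0.13 between the replicate 3 libraries. Leaving out either of replicates 1 and 3 of Stat3C or either of replicates 1 and 2 of Stim1KO Stat3C ended the call, at log2 fold changes of 0.29 to 0.39.

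Neither pump gene of the ER passed the test, and the spread within groups was small. Atp2a2 encodes SERCA2, the form found in most cells (chromosome 5, 122453513 to 122502225, minus strand), and stood at 15075, 14053 and 14936 in Stat3C and at 13817, 13756 and 14433 in Stim1KO Stat3C. Its log2 fold change was -0.07 (SE 0.05, 95% interval -0.18 to 0.05, adjusted p = 0.379 by limma). Atp2a3 encodes SERCA3, a form prominent in blood cells (chromosome 11, 72961169 to 72993044, plus strand), and stood at 4939, 4446 and 4599 against 4567, 4593 and 4230. Its log2 fold change was -0.06 (SE 0.06, 95% interval -0.20 to 0.08, adjusted p = 0.514 by limma). Within replicates 1 and 2 and between the replicate 3 libraries, the log2 differences were -0.08 and -0.05 for Atp2a2 and -0.03 and -0.12 for Atp2a3. Both sets of values overlap, and both intervals end below the changes measured for the 4 genes that rose.

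The Golgi pump gene Atp2c1 (chromosome 9, 105403539 to 105527319, minus strand) stood at 1425, 1370 and 1444 in Stat3C and at 1593, 1434 and 1616 in Stim1KO Stat3C. Only Stim1KO Stat3C replicate 2 fell inside the Stat3C range. The log2 fold change was 0.13 (SE 0.07, 95% interval -0.02 to 0.28, adjusted p = 0.228 by limma). It was 0.11 in replicates 1 and 2 and 0.16 between the replicate 3 libraries. In the annotation 19.0% of its exonic bases lie under exons of Aste1 on the opposite strand. No source used here states the strand setting of the counting, so reads of the 2 genes may be mixed.

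**Figure D2:**
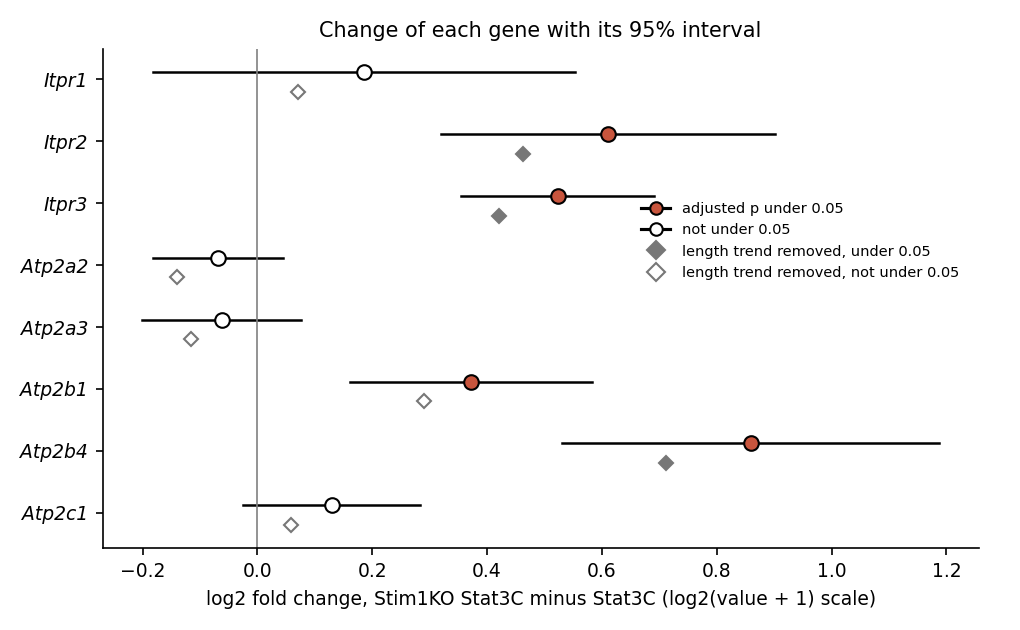
Log2 fold change of each gene (circles) with its 95% interval, and the same after a smooth trend on transcript length was removed from each library (diamonds); filled symbols have an adjusted p under 0.05. Itpr2, Itpr3 and Atp2b4 are filled under both, Atp2b1 only as a circle at 0.37.

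Transcript length moved with these changes and is given for that reason. Genes with longer transcripts tended to be higher in Stim1KO Stat3C over the whole table. The median log2 fold change was -0.06 for the 2501 tested genes whose longest annotated transcript is under 2 kb and 0.13 for the 635 genes at 8 kb or more, of which 15% were called higher. Of the 4 genes that rose, 3 have a transcript of at least 8 kb: Itpr2 (11679 bases), Itpr3 (8990) and Atp2b4 (11725). Atp2b1 has 7130, and the SERCA genes Atp2a2 and Atp2a3 have 5674 and 4606. After the trend was removed from each library, the log2 fold changes were 0.46 for Itpr2, 0.42 for Itpr3 and 0.71 for Atp2b4 (adjusted p = 0.0125, 0.0147 and 0.00264 by limma), and 0.29 for Atp2b1, which no longer passed (adjusted p = 0.104). Itpr1 has a long transcript as well (9870 bases) and stood at 0.07. This correction was chosen after seeing the data, and what produces the length trend was not tested.

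**Figure D3:**
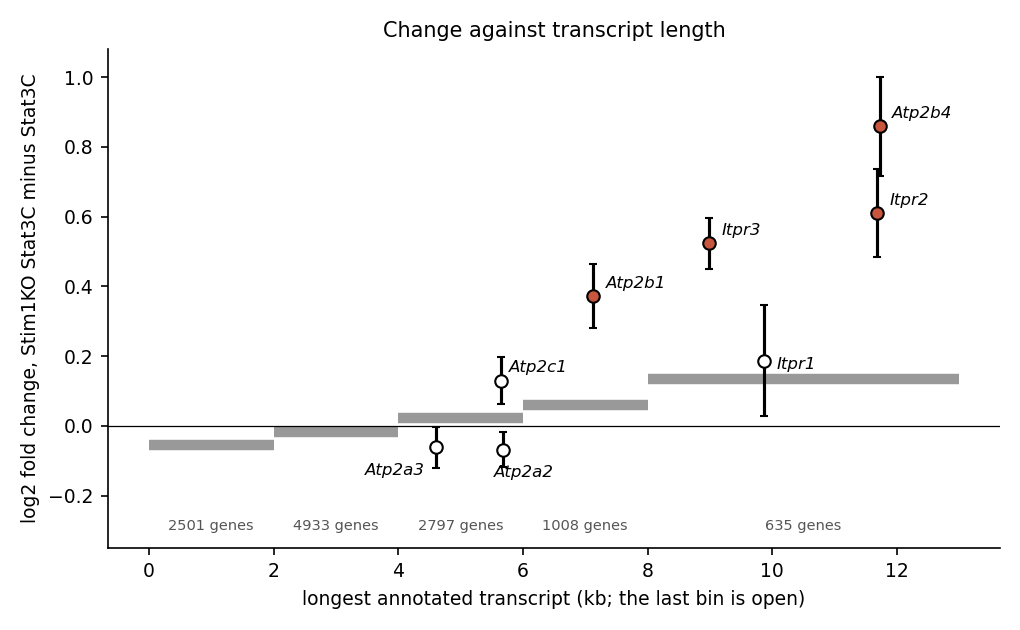
Log2 fold change of each gene with its SE (points, filled where the adjusted p is under 0.05) against its longest annotated transcript in kb, over grey bars for the median of all tested genes in each length bin, with the number of genes. The medians climb from -0.06 to 0.13. Itpr2, Itpr3, Atp2b1 and Atp2b4 lie above the median of their bin, as do Itpr1 and Atp2c1, which did not pass, and Atp2a2 and Atp2a3 lie below it.

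Marker genes of other cells also differed between the groups. The sum of 6 B cell markers ran from 134.5 to 381 normalised counts in Stat3C and from 32.2 to 63.0 in Stim1KO Stat3C, with Ms4a1 at 0 in all 3 Stim1KO Stat3C libraries, and the sum of Cd8a and Cd8b1 ran from 277 to 454 and from 111 to 159. The sum of 6 natural killer cell markers was 53.3 to 110 and 81.6 to 198, of which Klrc1 and Klrd1 made up most. The sum of 8 myeloid markers was 134 to 314 and 340 to 436. In Stim1KO Stat3C most of it was Cd68, at 317 to 396, while Lyz2, Csf1r and Adgre1, listed as Emr1, were at 2.15 or less. The highest Stat3C sum was that of replicate 2, where Cd68 stood at 139, Itgam at 72.5, Cd14 at 40.3, Emr1 at 26.7 and Lyz2 at 19.6. Siglech and Hba-a1 were at 0 in every library. The part of these markers in the results was not tested. Stat3C replicate 2, the library with the most platelet, erythroid and myeloid marker RNA of its group, had the highest Stat3C value of Itpr2, Itpr3 and Atp2b4, and without it their log2 fold changes were 0.74, 0.56 and 1.004. The same library had the highest Stat3C value of Itpr1, which did not pass. Its log2 fold change was 0.19 with all libraries and 0.24 without Stat3C replicate 2.

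Levels can be compared between genes only per length. Per kilobase of merged exons, Atp2a2 was the most abundant of the 8 genes, at 2415 ± 91.1 normalised reads per kilobase in Stat3C and 2303 ± 61.6 in Stim1KO Stat3C (SD, n = 3). Atp2a3 followed at 883 ± 47.8 and 845 ± 38.3, then Atp2b4 at 297 ± 54.7 and 537 ± 80.3. Itpr3 (199 ± 12.1 and 286 ± 20.4) came next. Atp2b1, Atp2c1 and Itpr1 lay between 118 and 200 reads per kilobase in every library, and neighbours among them overlapped in both groups. Itpr2 was the lowest, at 34.6 ± 5.63 and 52.6 ± 4.69. Taking the longest transcript as the length kept the top 3 and the lowest place but put Atp2b1 next after Atp2b4, with ranges that overlapped in Stat3C, and Itpr3 below it, since Atp2b1, Itpr1 and Atp2c1 have merged exons far longer than any single transcript.

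**Figure D4:**
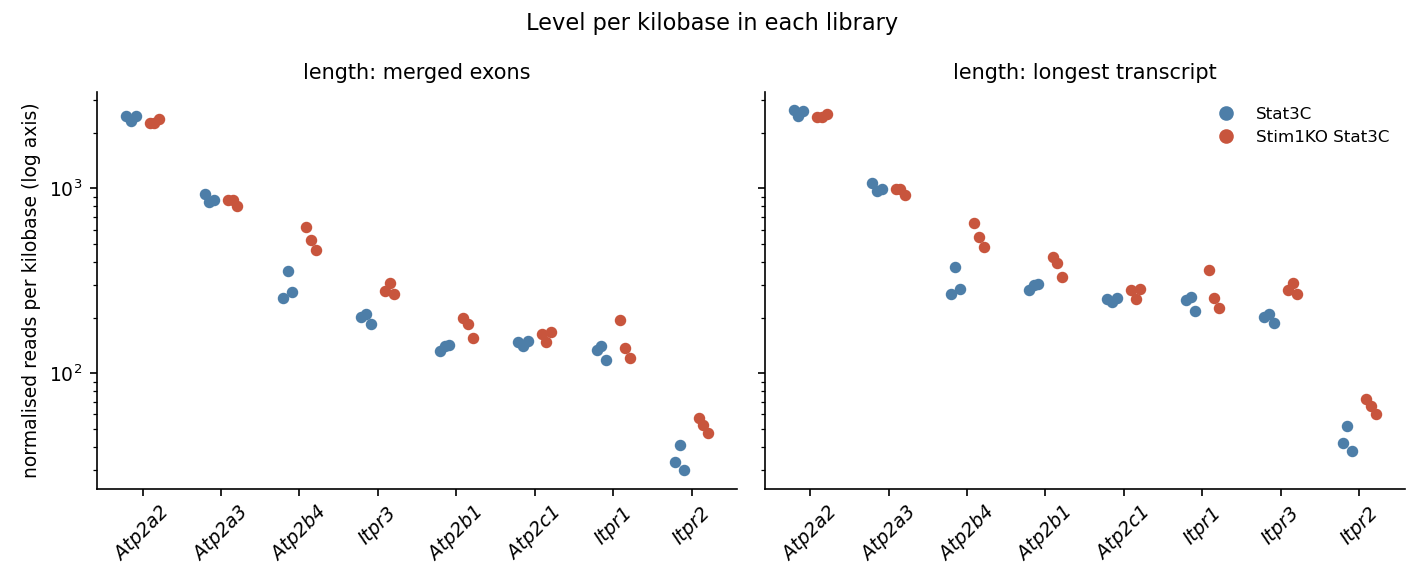
Normalised reads per kilobase (log axis) of each gene in the 3 Stat3C (blue) and 3 Stim1KO Stat3C (red) libraries, ordered by mean, with merged exons (left) or the longest annotated transcript (right) as the length. Atp2a2 and Atp2a3 are highest and Itpr2 lowest in both panels, and the middle order differs between them.

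Summed per kilobase of merged exons, the SERCA pair came to 3298 ± 133 in Stat3C and 3148 ± 23.3 in Stim1KO Stat3C. The PMCA pair came to 389, 501 and 417 in Stat3C and to 823, 710 and 619 in Stim1KO Stat3C, with no overlap. The 3 IP3 receptors came to 370, 390 and 333 and to 532, 499 and 439, also with no overlap. Within the PMCA pair, Atp2b4 made up 66.0%, 71.7% and 66.0% in Stat3C against 75.7%, 73.9% and 74.9% in Stim1KO Stat3C. Within SERCA, Atp2a2 made up 72.2% to 74.8% in every library. Within the receptors, Itpr3 made up 53.6% to 55.7% in Stat3C and 52.6%, 61.9% and 61.4% in Stim1KO Stat3C, where replicate 1, with its high Itpr1, lay below the Stat3C range and the other libraries above it. These shares depend on the length: with the longest transcript, Itpr1 held 49.9% and Itpr3 41.1% in Stat3C. Atp2b4 then made up 48.7%, 55.4% and 48.7% of the PMCA pair in Stat3C and 60.4%, 58.1% and 59.3% in Stim1KO Stat3C. All these shares are descriptions without a test.

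Across the 6 libraries, the 4 genes that rose followed each other closely on the log2(value + 1) scale. Pearson's r was 0.98 for Itpr2 with Atp2b4, 0.94 for Itpr2 with Itpr3 and 0.94 for Atp2b1 with Atp2b4. It was 0.883 for Itpr2 with Atp2b1 and 0.865 for Itpr3 with Atp2b1, the lowest of their pairs. That of Atp2a2, which did not pass, was -0.88 with Atp2b4 and -0.888 with Itpr2. These 6 points share the genotype contrast, so r between the genes that rose cannot be told apart from it. For Atp2a2, whose groups overlapped, r also takes in the spread within groups. How much each adds was not tested. All 4 had their lowest Stim1KO Stat3C value in replicate 3, and 3 of them their highest in replicate 1, the library with the fewest reads. This order was not particular to them. Itpr1, which did not pass, was also highest in replicate 1 and lowest in replicate 3, and Atp2a3 was lowest in replicate 3. Among all tested genes the pattern nearest to Itpr3 was that of Plekhg2 (r 0.998), which stood at 982 ± 79.3 and 1667 ± 178. The nearest to Itpr2 was Smarca2 (r 0.999) and to Atp2b4 Snx18 (r 0.998). Lmbr1l was nearest to Atp2b1 (r 0.995), Zfp933 to Itpr1 (0.994), Ltv1 to Atp2a2 (0.9996), Vti1a to Atp2a3 (0.981) and Ccdc134 to Atp2c1 (0.991). Each is the best among all tested genes over only 6 libraries.

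Among genes of IP3 turnover, several rose, and the phospholipase gene Plcg2 fell. The list holds enzymes that make IP3 or its lipid precursors, or that act on inositol phosphates. Of 25 listed genes 20 were tested, 5 rose and 1 fell, the median log2 fold change being 0.03, beside 8.62% of all tested genes called higher and 4.96% lower. Plcg1, the phospholipase C coupled to the T cell receptor, rose from 2927 ± 113 to 3881 ± 117 (log2 fold change 0.41, SE 0.05, adjusted p = 0.00355). Its relative Plcg2, best known from B cells, fell from 486 ± 185 to 189 ± 40.6 (-1.32, adjusted p = 0.0161), and Stat3C replicate 2 held its highest value, 699. That call was lost without Stim1KO Stat3C replicate 2 or 3, without limma's variance trend and with voom. The B cell markers given above were lower in the same group. Within Stat3C their sum was 243, 134.5 and 381 in replicates 1, 2 and 3, lowest where Plcg2 was highest. Stat3C replicate 2 also had the most platelet, erythroid and myeloid marker RNA of its group. The part of these markers in the fall of Plcg2 was not tested. The delta-type phospholipases Plcd4 and Plcd1 rose from low levels, Plcd4 from 41.6 ± 11.0 to 287 ± 105 and Plcd1 from 13.2 ± 3.47 to 76.9 ± 27.9. Inpp1, which breaks down inositol phosphates, rose from 188 ± 29.2 to 339 ± 12.7. Pip5k1c, which makes the lipid that phospholipase C cleaves, rose from 1457 ± 45.3 to 1805 ± 50.3. When 1 library at a time was left out, Pip5k1c passed in 4 of 6 fits, and Plcg1, Plcd1, Plcd4 and Inpp1 in 6 of 6. The IP3 kinase gene Itpkb stood at 1440 ± 159 and 1628 ± 133 (adjusted p = 0.244). Plcg2 and Pip5k1c were named after their values were seen, to complete the counts.

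Of 21 tested genes for proteins that bind or remove IP3 receptors, 2 rose and 2 fell, around a median of 0.06. These counts are close to the shares over all tested genes, 8.62% higher and 4.96% lower. Bcl2, the survival protein that also binds and restrains IP3 receptors, fell from 3065 ± 40.7 to 2162 ± 127 (log2 fold change -0.51, adjusted p = 0.00225). Grina rose from 1015 ± 104 to 1346 ± 141, and Erp44, an ER oxidoreductase that binds the type 1 receptor, rose from 1733 ± 32.4 to 2098 ± 192 (adjusted p = 0.0459). When 1 library at a time was left out, Bcl2 passed in 6 of 6 fits, and Grina and Erp44 in 2 each.

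Of 17 tested genes for SERCA regulators and calcium-binding proteins of the ER and Golgi lumen, 2 rose and 1 fell, with a median of 0.11, a share close to the 13.6% called among all tested genes. Sdf4, which encodes the Golgi calcium-binding protein Cab45, rose from 10887 ± 1215 to 16780 ± 1467 (log2 fold change 0.63, adjusted p = 0.00524), and Hsp90b1, an abundant ER chaperone, rose from 16451 ± 815 to 19383 ± 807 (0.24, adjusted p = 0.0304). Without 1 library at a time, Sdf4 passed in 6 of 6 fits and Hsp90b1 in 2, and with no filter on low values Hsp90b1 had an adjusted p of 0.0512 by limma. Rcn3, a reticulocalbin, fell from 119 ± 54.1 to 26.0 ± 1.89. Calr, the main calcium buffer of the ER, stood at 20298 ± 2196 and 22740 ± 1094 (adjusted p = 0.194). Of 8 tested genes for PMCA partners, calmodulin and calcium exchangers, 0 passed by limma, edgeR or DESeq2, and 0 had an unadjusted p under 0.05 by limma. Among them Bsg, whose product basigin is a subunit of PMCA complexes, stood at 11501 ± 551 and 10928 ± 869.

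Of 9 tested genes of store-operated entry, Stim1 fell and 1 rose, beside 8.62% of all tested genes called higher and 4.96% lower. The fall of Stim1, the deleted gene, was set by the design. The gene that rose was Saraf, listed as Tmem66, whose product slows the STIM and ORAI channel. It went from 2069 ± 101 to 2763 ± 300 (log2 fold change 0.41, adjusted p = 0.017 by limma). When 1 library at a time was left out, Tmem66 passed in 4 of 6 fits. Of the 7 remaining pump and release channel genes of the same families only Ryr1 passed the filter, at 16.7 ± 2.02 and 15.2 ± 2.47 (adjusted p = 0.837). Atp2a1, Atp2b2, Atp2b3, Atp2c2 and Ryr2 stayed below 10 normalised counts in every library. Ryr3, a ryanodine receptor that also releases ER calcium, was listed at 3.896, 2.52 and 2.91 in Stat3C and at 19.2, 11.8 and 11.9 in Stim1KO Stat3C, below the filter. With no filter its log2 fold change was 1.88 (adjusted p = 0.0391 by limma).

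**Figure D5:**
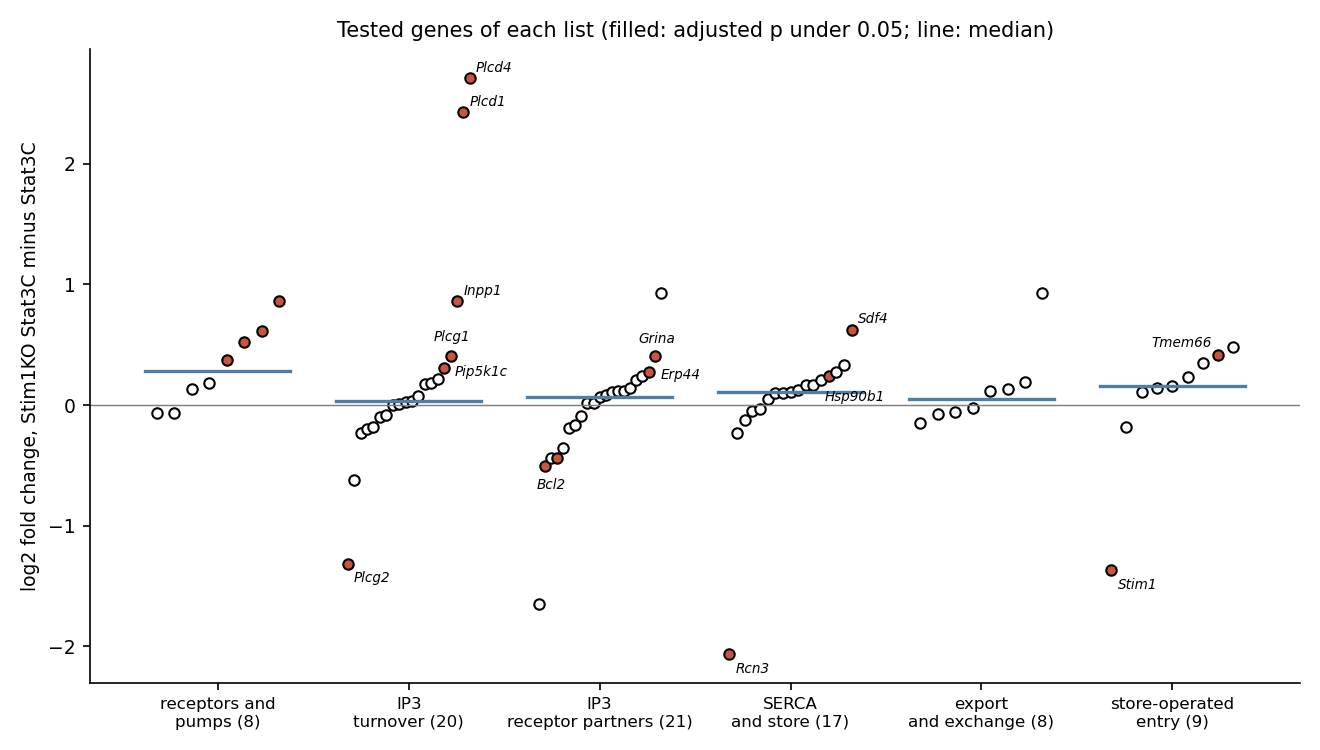
Log2 fold change of every tested gene of the receptors and pumps and of 5 lists around them, filled where the adjusted p is under 0.05, with the genes described in the text named and a line at each median. The receptors and pumps have 4 filled points, all above 0, whereas the lists hold filled points on both sides or few.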

How the data were processed

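The deposited table gives 1 normalised signal per gene and library. Per the submitters' processing notes, the tools were DESeq2 1.22.2, HTSeq 0.11.1 and TopHat2 2.1.1 on mm10, with no order given. From the values, the authors' signal is read counts over 1 size factor per library: each column has a step of which 100% of its entries are whole multiples (tolerance 0.01), and dividing by it gave back the reads. The step of Stim1KO Stat3C replicate 3 (0.995) is too close to 1 for an automatic test. A value of 0 allows up to 3 reads, 1.30 to 4.11 normalised counts, counting error only. In 27 rows the gene name is a date, and they were not used.

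The main test was limma 3.58.1 (R 4.3.3, variance trend, two-sided) on log2(value + 1) for genes with a mean of at least 10, Benjamini-Hochberg adjusted over all 11947, Stim1KO Stat3C minus Stat3C. On this scale changes of low genes are understated. Intervals are 95% from that fit. edgeR 4.0.16 and DESeq2 1.42.0 ran on recovered reads as alternatives, beside other pseudocounts, filters, scalings, limma settings, left-out libraries, Xist as a covariate and, chosen after seeing the data, a removed length trend. The steps were tested on simulated data. Replicates were numbered in accession order. Lengths and positions are from GENCODE mouse release 21 (GRCm38), the build named mm10, and 98.5% of rows had a length. No source used here states the gene models or strand setting of the counting.

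The genes and lists were chosen with earlier results of these data known. Named genes were the 8, Stim1, up to 4 called genes per list by smallest adjusted p or, where none passed, the 2 of highest mean, and the gene of highest r per member. Itpkb, Calr, Ryr3 and the unexpressed relatives were named after their values were seen. Of the listed genes, Strit1 is not analysed here. Some genes that the rule names are not reported here.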

Additional observations from a re-analysis of the deposited data

How the results depend on the processing

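No paired analysis was possible because the labels give no replicate numbers. The split seen in Xist was instead fitted as a covariate, which gave 1738 genes and 4 of the 8, again Itpr2, Itpr3, Atp2b1 and Atp2b4. Under 22 alternatives, Itpr3 and Atp2b4 passed in 21 each, Itpr2 in 16 and Atp2b1 in 15, while Itpr1, Atp2a2, Atp2a3 and Atp2c1 passed in none. The cause of the changes below was not tested, except that fits on fewer libraries have fewer samples.

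With replicates 1 and 2 only, 82 genes passed, and 0 of the receptors and pumps, with log2 fold changes of 0.58 for Itpr2, 0.52 for Itpr3, 0.49 for Atp2b1 and 0.91 for Atp2b4. Of the lists, 1 gene of IP3 turnover, 0 receptor partners, 0 store proteins and 1 gene of store-operated entry passed. Without limma's variance trend 827 genes passed, and 2 of the 8, Itpr2 (0.61, adjusted p = 0.0611) and Atp2b1 (0.37, adjusted p = 0.0973) being lost, with 1 receptor partner and 1 entry gene. Library quality weights gave 3959 genes, 9 receptor partners, 8 store proteins and 5 entry genes. With voom 1 receptor partner passed. edgeR without Stim1KO Stat3C replicate 3 gave 922 genes, 1 receptor partner and 1 entry gene. With the length trend removed, chosen after seeing the data, 1030 genes and 2 receptor partners passed, and Atp2b1 stood at 0.29. With no filter 1 relative, Ryr3, passed, and a mean of at least 50 left no relative to test.

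Leaving out 1 library at a time gave 617 to 2899 genes, the most without Stat3C replicate 2, and 2 to 4 of the 8, the 2 where replicate 1 or 3 of Stat3C was missing, or replicate 1 or 2 of Stim1KO Stat3C. The lists gave 1 to 6 receptor partners, 2 to 5 store proteins, 0 to 1 export partners and 1 to 4 entry genes. Log2 fold changes ran from -0.011, without Stim1KO Stat3C replicate 1, to 0.33 for Itpr1, from 0.51 to 0.74 for Itpr2 and from 0.29 to 0.47 for Atp2b1.

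Per kilobase of the longest transcript in place of merged exons, the mean level over the 6 libraries was 261.9 for Itpr1, 55.3 for Itpr2, 2528 for Atp2a2, 990.5 for Atp2a3, 340.4 for Atp2b1 and 262.4 for Atp2c1. Depth, at 456 reads or more per value, gave a counting error of at most 4.68%.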
